A study of Homo sapiens with 12 samples.

Results

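The 10 genes described here are 8 mucins and 2 genes of the secretory epithelial programme, SPDEF and AGR2, taken by name from the 58830 entries of the table. They were followed in A549 cells, a human lung adenocarcinoma epithelial line. All 12 libraries came from this line at day 5, with 3 libraries in each of 4 groups. These were the edited line (labelled Sm22mut, in which the miR-22 target site of SNAI1 was knocked out) given TGFβ at 10 ng/mL, the same line untreated, the wild type line (WT) given TGFβ at 10 ng/mL, and the wild type line untreated. TGFβ is an inducer of epithelial-mesenchymal transition (EMT), the change in which epithelial cells lose junctions and gain mesenchymal genes. The libraries are labelled biological repeats, and p-values measure only the spread between them. The labels name a single edited derivative, so the edit and the derivation of that line cannot be told apart.

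Mucins are large glycoproteins whose serine- and threonine-rich repeats carry dense O-linked sugars. MUC5AC, MUC5B and MUC2 are secreted and form gels, with MUC5AC and MUC5B as the main mucins of airway mucus and MUC2 that of the intestine. MUC1, MUC4, MUC13, MUC16 and MUC20 are membrane-bound and line the cell surface. SPDEF is an ETS family transcription factor needed for goblet cell differentiation in mouse airway and intestine, and AGR2 is a disulfide isomerase of the endoplasmic reticulum needed for MUC2 production in mouse intestine.

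Values are normalized counts, meaning reads per gene divided by a size factor per library, from 84210775 to 111141708 reads a library. SNAI1 itself averaged 1313 ± 96.5 in the TGFβ-treated edited line and 481 ± 43.4 in the untreated edited line, against 875 ± 97.2 in treated and 496 ± 88.6 in untreated wild type (SD, n = 3). The labelled edit removes a binding site and not the gene, and SNAI1 reads therefore leave the genotype unchecked. Epithelial markers were present throughout, with a summed normalized count of 502527 to 576451 in the treated and 625511 to 648914 in the untreated edited line, and of 486508 to 624465 in treated and 586425 to 605533 in untreated wild type. Of these 6 markers, 5 fell and 1 rose with TGFβ in each line, with CDH1 at -1.73 ± 0.06 in the edited line and -1.63 ± 0.06 in wild type. Over all 20456 genes tested, TGFβ raised 32.1% and lowered 30.7% in the edited line, and raised 30.8% and lowered 30.9% in wild type. Among 6 fibroblast markers, 5 were tested and all 5 rose with TGFβ in both lines. Their sum, which includes COL1A1, was 107674 to 111515 in the treated and 483 to 636 in the untreated edited line, and 153425 to 161612 in treated and 670 to 829 in untreated wild type. Whether any of the 5 was tested only because of its treated libraries was not checked. Leukocyte markers summed to 162 or less in every library, with CD3E under 10 in each. Of 3 tested leukocyte markers, CSF1R rose with TGFβ by 5.46 in the edited line and 2.47 in wild type on the log2 scale. PTPRC fell (-1.90 in the edited line and -3.34 in wild type), and CD14 was not called in either line. The part of these marker changes in the mucin values was not tested. In these bulk samples, fewer cells making a transcript and less transcript per cell cannot be told apart.

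TGFβ lowered the 3 gel-forming mucins, MUC13, SPDEF and AGR2 in both lines, and MUC16 and MUC1 passed in wild type. Of the 10 genes, 6 fell and none rose in the edited line, and 8 fell and none rose in wild type, by limma with a Benjamini-Hochberg adjusted p under 0.05. Over all 20456 genes tested, 62.8% changed in the edited line (30.7% fell and 32.1% rose) and 61.7% in wild type (30.9% fell and 30.8% rose). All 10 passed the filter on low values (at least 10 in at least 3 libraries), but MUC2 did so only through untreated libraries and had to differ between some groups. The median log2 fold change of the 10 was -3.30 in the edited line and -3.20 in wild type, beside 0.03 in the edited line and 0.02 in wild type over all tested genes. The 10 were chosen with earlier results of these data known, so these counts and medians, which include MUC2, only describe them. The libraries of treated and untreated cells did not overlap, with treated lower, for 6 of the 10 genes in the edited line and 8 in wild type, beside 34.2% of tested genes in the edited line and 32.0% in wild type.

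**Figure D1:**
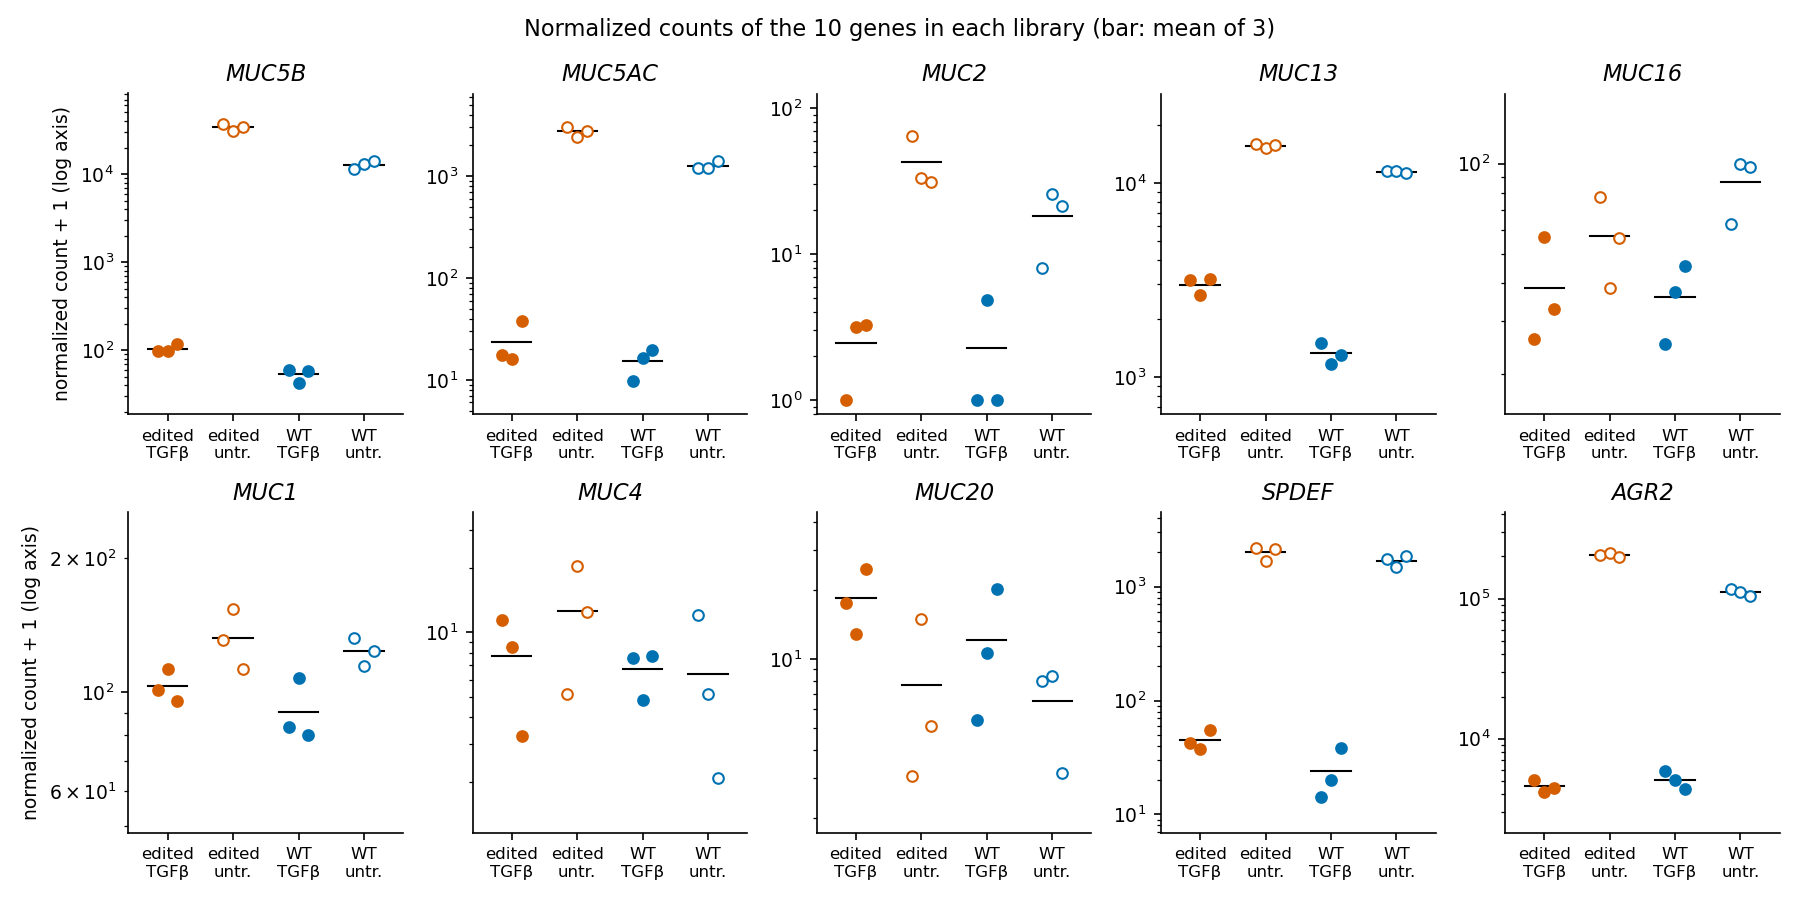
Normalized counts plus 1 (vertical axis, log scale) of the 10 genes, 1 panel each, in every library of the TGFβ-treated edited line, the untreated edited line, treated wild type (WT) and untreated wild type; points are libraries and bars are means of 3. MUC5B, MUC5AC, SPDEF, AGR2 and MUC13 lie far lower with TGFβ in both lines, while the libraries of MUC4 and MUC20 overlap between treated and untreated cells.

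MUC5B, the gel-forming mucin of airway glands and small airways, had the lowest TGFβ log2 fold change of the 20456 tested genes in each line. It stood at 97.1, 96.9 and 116 normalized counts in the treated edited line, against 36579, 30523 and 34381 in the untreated edited line. In wild type it stood at 59.4, 41.2 and 58.0 with TGFβ, against 11329, 12992 and 13972 without. Treated and untreated libraries were far apart in both lines. The log2 fold change, on the log2(value + 1) scale, was -8.34 ± 0.13 in the edited line (adjusted p = 2.97e-17) and -7.90 ± 0.13 in wild type (adjusted p = 5.57e-17), where ± is the standard error. Treated cells kept 0.306% of the untreated mean in the edited line and 0.414% in wild type. The GENCODE 29 antisense gene MUC5B-AS1 overlaps 7416 bases of MUC5B, and its reads cannot be told apart from those of MUC5B unless strand was used in counting. Reads were still counted in every treated library, with 285 over the 3 of the edited line and 166 over the 3 of wild type.

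MUC5AC, the gel-forming mucin of airway goblet cells, lies beside MUC5B on chromosome 11. It had 16.7, 15.1 and 36.4 normalized counts in the treated edited line, against 3033, 2432 and 2762 in the untreated edited line. Wild type libraries had 8.79, 15.3 and 18.5 with TGFβ, against 1194, 1209 and 1400 without. Again no treated library came near an untreated one. The log2 fold change was -6.96 ± 0.28 in the edited line (adjusted p = 2.99e-12) and -6.44 ± 0.28 in wild type (adjusted p = 8.63e-12). MUC5B reads exceeded MUC5AC reads per kilobase of exon in all libraries, by 2.99 to 6.03 times in the treated and 11.3 to 11.8 times in the untreated edited line, and by 2.52 to 6.33 times in treated and 8.90 to 10.1 times in untreated wild type. The ratio in treated libraries rests on as few as 8 MUC5AC reads.

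MUC2, the third gel-forming mucin of the same cluster, was scarce. It was at 0, 2.15 and 2.28 normalized counts in the treated edited line, against 62.9, 32.2 and 30.2 in the untreated edited line. In wild type it was at 0, 3.84 and 0 with TGFβ, against 6.98, 24.7 and 20.4 without. The treated groups together held 4 reads each in 3 libraries. Fitted log2 fold changes were -4.22 ± 0.74 in the edited line (adjusted p = 0.000112) and -3.28 ± 0.74 in wild type (adjusted p = 0.00115), and their size depends on the value added before the log, with -2.12 in the edited line and -1.23 in wild type where 10 was added. MUC6, the other mucin of the cluster, stayed under 10 in every library and was not tested.

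The nearest tested protein-coding neighbours of the mucin cluster, AP2A2 and TOLLIP, had TGFβ log2 fold changes between -0.35 and 0.18. The order on chromosome 11 runs AP2A2, MUC6, MUC2, MUC5AC, MUC5B, TOLLIP, BRSK2, MOB2 and DUSP8, with MUC2 at chr11:1074874-1110508, MUC5AC at chr11:1157953-1201138 and MUC5B at chr11:1223066-1262172 (GRCh38.p14, all on the plus strand). TOLLIP, an inhibitor of Toll-like receptor signalling that follows MUC5B, was at 0.12 ± 0.07 in the edited line (adjusted p = 0.159) and 0.18 ± 0.07 in wild type (adjusted p = 0.0311). AP2A2, an endocytic adaptor subunit, fell by a small amount, with -0.29 ± 0.05 in the edited line (adjusted p = 0.000140) and -0.35 ± 0.05 in wild type (adjusted p = 2.01e-05). The antisense gene TOLLIP-AS1, named after its values were seen, had at most 37.6 normalized counts and stood at -0.56 in the edited line (adjusted p = 0.315) and -1.38 in wild type (adjusted p = 0.0170). BRSK2 rose by 0.48 ± 0.10 in the edited line and by 0.32 ± 0.10 in wild type. DUSP8, a MAP kinase phosphatase farther along, fell (-2.44 ± 0.12 in the edited line and -2.69 ± 0.12 in wild type). Farther out on the other side, TSPAN4 fell in both lines (-1.26 ± 0.07 in the edited line and -0.83 ± 0.07 in wild type), PIDD1 rose in both (0.40 ± 0.08 in the edited line and 0.73 ± 0.08 in wild type), and CEND1 rose in wild type (3.31 ± 0.75) and stood at 1.05 ± 0.75 in the edited line (adjusted p = 0.241). MOB2 rose in the edited line (0.60 ± 0.10) and stood at 0.14 ± 0.10 in wild type (adjusted p = 0.207). CHID1 was at -0.15 ± 0.08 in the edited line (adjusted p = 0.111) and fell in wild type (-0.26 ± 0.08), and KRTAP5-1 did not pass in either line (-0.99 ± 0.55 in the edited line and -1.14 ± 0.55 in wild type).

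**Figure D2:**
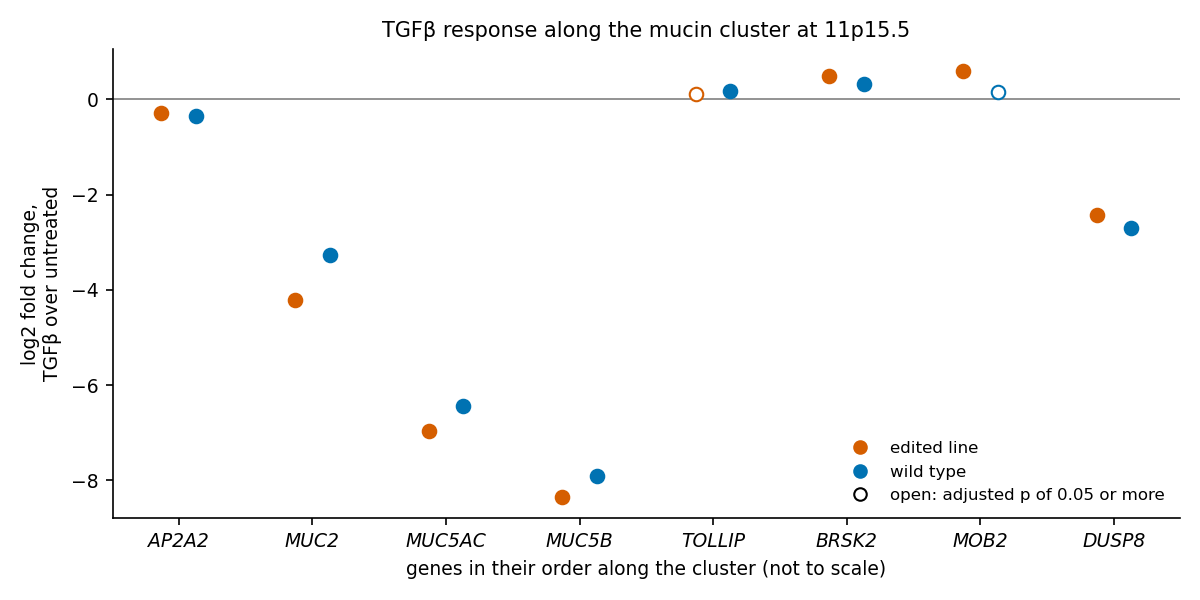
Log2 fold change of TGFβ over untreated (vertical axis) in the edited line and in wild type (WT) for tested protein-coding genes from AP2A2 to DUSP8, in their order on chromosome 11 and not to scale; filled points have an adjusted p under 0.05. The 3 gel-forming mucins lie at -3.28 or lower, TOLLIP, BRSK2 and MOB2 lie between 0.12 and 0.60, and DUSP8 lies at -2.44 in the edited line and -2.69 in wild type.

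SPDEF and AGR2 fell together with the secreted mucins. SPDEF (chr6:34537802-34556329, minus strand) stood at 41.8, 36.6 and 54.6 normalized counts in the treated edited line, against 2199, 1676 and 2142 in the untreated edited line. Wild type libraries stood at 13.2, 19.2 and 37.0 with TGFβ, against 1746, 1487 and 1843 without. The groups did not overlap in either line, and the log2 fold change was -5.48 ± 0.26 in the edited line (adjusted p = 2.60e-11) and -6.25 ± 0.26 in wild type (adjusted p = 5.47e-12).

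AGR2 (chr7:16791811-16804999, minus strand) was the most abundant of the 10 per kilobase of exon in each group. It held 5100, 4148 and 4472 normalized counts in the treated edited line, against 203412, 213128 and 197573 in the untreated edited line. In wild type it held 5892, 5035 and 4392 with TGFβ, against 116728, 111844 and 104205 without. The untreated groups were apart from each other, and the treated groups of the lines overlapped. The log2 fold change was -5.49 ± 0.09 in the edited line (adjusted p = 1.14e-16) and -4.45 ± 0.09 in wild type (adjusted p = 1.11e-15). AGR2 made up 0.00450% to 0.00531% of reads in the treated and 0.217% to 0.236% in the untreated edited line, and 0.00485% to 0.00623% in treated and 0.115% to 0.125% in untreated wild type.

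Promoter sequence was at hand for 7 of the 10 genes in RefSeq's table for GRCh38.p14, all but MUC5AC, MUC5B and MUC20. The 250 bases before the start are printed 5′ to 3′ on the gene's strand for SPDEF, AGR2 and MUC13, the 3 most abundant genes with an entry that fell in both lines, and for MUC1, whose change was small. Capitals mark CAGGTG (an E-box, the kind of site that SNAI and ZEB repressors bind) or CAGAC (a SMAD box), searched on both strands. A single form of the forkhead motif, TGTTTAC, was searched likewise and none of the 7 genes held it. Other forms of that motif were not searched.
SPDEF (chr6:34556330-34556579): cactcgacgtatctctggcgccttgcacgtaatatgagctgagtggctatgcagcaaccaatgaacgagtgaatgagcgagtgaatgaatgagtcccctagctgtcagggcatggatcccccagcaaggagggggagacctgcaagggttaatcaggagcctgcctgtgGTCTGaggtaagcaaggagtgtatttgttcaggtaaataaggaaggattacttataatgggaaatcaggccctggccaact
AGR2 (chr7:16805000-16805249): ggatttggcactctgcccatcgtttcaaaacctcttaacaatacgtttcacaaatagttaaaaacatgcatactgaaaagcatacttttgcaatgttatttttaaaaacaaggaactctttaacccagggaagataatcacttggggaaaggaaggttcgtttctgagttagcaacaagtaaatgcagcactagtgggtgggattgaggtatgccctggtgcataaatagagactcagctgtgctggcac
MUC13 (chr3:124934752-124935001): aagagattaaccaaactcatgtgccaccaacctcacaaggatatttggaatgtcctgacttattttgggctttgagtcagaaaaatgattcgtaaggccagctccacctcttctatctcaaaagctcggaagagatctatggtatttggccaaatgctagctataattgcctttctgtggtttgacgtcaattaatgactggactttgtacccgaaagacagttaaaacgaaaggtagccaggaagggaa
MUC1 (chr1:155192916-155193165): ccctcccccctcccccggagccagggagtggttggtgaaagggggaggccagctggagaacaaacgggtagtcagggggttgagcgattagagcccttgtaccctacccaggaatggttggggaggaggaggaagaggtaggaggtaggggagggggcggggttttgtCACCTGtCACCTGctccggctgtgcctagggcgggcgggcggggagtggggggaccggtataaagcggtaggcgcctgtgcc
The MUC1 window held 2 E-boxes, at -82 to -77 and -75 to -70 from the start, and the SPDEF window held 1 SMAD box at -81 to -77. The AGR2 and MUC13 windows held none of the 3 motifs in the forms searched. Among the genes not printed, MUC2 held 1 SMAD box at -19 to -15 and MUC4 held none of the motifs. Each MUC16 window held 2 SMAD boxes, and the window at chr19:9010410-9010659 also held 1 E-box. Over the 35116 promoter windows of the same length, 17.5% held the E-box, 38.0% the SMAD box and 2.98% the forkhead form TGTTTAC. The motifs do not overlap in the printed windows, and a match or its absence describes letters only.

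The membrane mucins split. MUC13 (chr3:124905442-124934751, minus strand), a transmembrane mucin of gut epithelium, stood at 3157, 2640 and 3183 normalized counts in the treated edited line, against 15937, 15140 and 15798 in the untreated edited line. Wild type libraries stood at 1503, 1167 and 1303 with TGFβ, against 11510, 11520 and 11283 without. All 4 groups were apart from each other for MUC13. The log2 fold change was -2.39 ± 0.09 in the edited line (adjusted p = 6.15e-13) and -3.12 ± 0.09 in wild type (adjusted p = 2.43e-14).

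MUC16, the CA125 antigen, fell in wild type, with 24.2, 36.4 and 44.5 normalized counts in treated and 61.8, 98.9 and 96.7 in untreated libraries (log2 fold change -1.28 ± 0.35, adjusted p = 0.00501). In the edited line it stood at 25.1, 56.0 and 31.9 with TGFβ, against 76.3, 37.5 and 55.6 without, groups that overlap. The log2 fold change there was -0.60 ± 0.35 (adjusted p = 0.154), with a call only when treated edited line replicate 2 was left out (-0.92). The difference between the MUC16 responses of the lines did not pass (0.68 ± 0.50, adjusted p = 0.395).

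MUC1, a widely expressed membrane mucin, ranged from 79.0 to 152 normalized counts over all libraries. It averaged 102 ± 8.95 in the treated and 131 ± 20.2 in the untreated edited line, and 89.3 ± 14.9 in treated and 123 ± 8.95 in untreated wild type. The libraries of treated and untreated wild type did not overlap, and the fall was small (-0.46 ± 0.19, adjusted p = 0.0399). That MUC1 call was lost without untreated wild type replicate 1 or 3 (-0.41 and -0.46), without treated wild type replicate 1 or 3 (-0.41 and -0.38), with no filter (adjusted p = 0.0675) and with the compared groups alone in the fit (adjusted p = 0.0640). In the edited line MUC1 was at -0.35 ± 0.19 (adjusted p = 0.110) and passed with quantile normalization (-0.55). A GENCODE 29 gene on the same strand, AL713999.1, overlaps 1449 bases of MUC1 and had at most 16.8 normalized counts.

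MUC4 and MUC20, neighbouring genes on chromosome 3, were near the limit of detection. MUC4 had 1.07 to 19.3 and MUC20 2.06 to 23.9 normalized counts over all libraries, with 17 to 48 reads summed over the 3 libraries of each group for the pair. MUC4 stood at -0.67 ± 0.73 in the edited line (adjusted p = 0.443) and 0.39 ± 0.73 in wild type (adjusted p = 0.669), a wild type value that was below 0 with quantile normalization (-0.17) and without untreated wild type replicate 3 (-0.25). MUC20 stood at 1.53 ± 0.67 in the edited line (adjusted p = 0.0577) and 0.82 ± 0.67 in wild type (adjusted p = 0.306). In the edited line MUC20 passed under 6 of the 23 alternatives. MUC20 shares sequence with its pseudogene copy MUC20P1 and overlaps 19083 bases of the transcript MUC20-OT1 on the same strand, so its reads are uncertain.

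**Figure D3:**
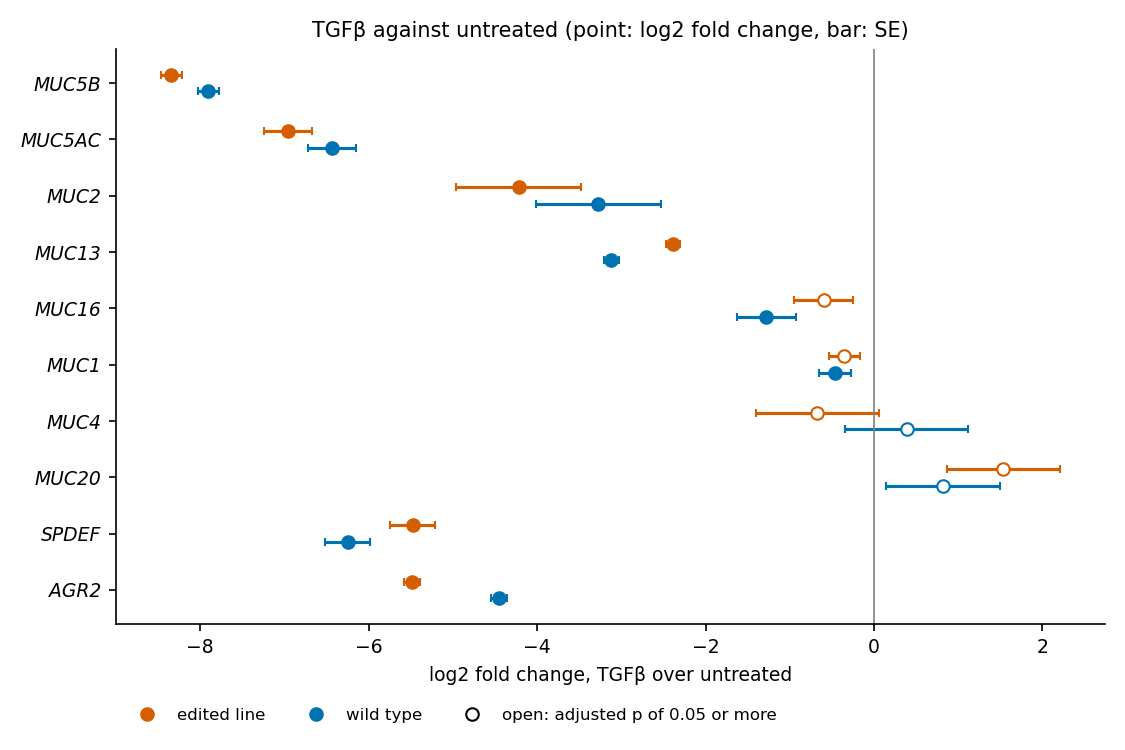
Log2 fold change of TGFβ over untreated (horizontal axis) with its standard error (bar) for the 10 genes in the edited line (upper point) and in wild type (lower point); filled points have an adjusted p under 0.05. The secreted mucins, SPDEF and AGR2 lie from -3.28 to -8.34, and MUC1, MUC4 and MUC20 lie between -0.67 and 1.53.

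Without TGFβ, the edited line held more transcript of 4 of the 10 genes than wild type and less of none, by the same test. Of all tested genes 31.8% differed, with 14.3% higher and 17.5% lower. MUC5B was higher by 1.41 ± 0.13 on the log2 scale (adjusted p = 8.02e-07), with a mean of 33828 ± 3066 in the edited line and 12764 ± 1337 in wild type. MUC5AC was higher by 1.11 ± 0.28 (2742 ± 301 in the edited line and 1268 ± 115 in wild type, adjusted p = 0.00684). AGR2 was higher by 0.88 ± 0.09 (204704 ± 7858 in the edited line and 110926 ± 6312 in wild type, adjusted p = 3.74e-06), and MUC13 by 0.45 ± 0.09 (15625 ± 426 in the edited line and 11438 ± 134 in wild type, adjusted p = 0.000813). The libraries of the lines did not overlap for these 4 genes or for MUC2, beside 23.7% of tested genes with the edited line wholly higher. MUC2 stood at 1.31 ± 0.74 (adjusted p = 0.202) and passed with a pseudocount of 10 (0.93). SPDEF was not called, at 0.24 ± 0.26 (2006 ± 287 in the edited line and 1692 ± 184 in wild type, adjusted p = 0.533). Per kilobase of exon, MUC5B lay above SPDEF in the untreated edited line (1819 ± 165 and 1048 ± 150) and below it in untreated wild type (686 ± 71.9 and 884 ± 96.2), with no overlap between the 2 genes in either group.

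With TGFβ, 3 of the 10 genes were higher in the edited line and none lower, beside 7.38% and 4.32% of tested genes (11.7% in all). The libraries of the edited line lay wholly above those of wild type for MUC5B and MUC13, beside 15.2% of tested genes. The 11.7% are 1510 genes higher and 884 lower, and became 1254 higher and 1355 lower with libraries scaled to equal totals and 1367 higher and 1345 lower with quantile normalization. Their total of 2394 became 1183 with the compared groups alone, 1387 without treated edited line replicate 3, 1425 without treated wild type replicate 2 and 3829 without treated wild type replicate 3. MUC13 differed most clearly, by 1.18 ± 0.09 on the log2 scale (2993 ± 306 in the edited line and 1324 ± 169 in wild type, adjusted p = 3.61e-07). MUC5B was higher by 0.97 ± 0.13 (a mean of 103 in the edited line and of 52.9 in wild type, adjusted p = 0.000154). SPDEF was higher by 1.01 ± 0.26 (44.3 ± 9.27 in the edited line and 23.1 ± 12.4 in wild type, adjusted p = 0.0202), though its libraries overlapped. The SPDEF call was lost without treated wild type replicate 1 (0.69) or 2 (0.95), without treated edited line replicate 3 (0.86), with the compared groups alone (adjusted p = 0.184) and with edgeR (adjusted p = 0.0790). AGR2 (-0.15 ± 0.09, adjusted p = 0.334) passed without treated wild type replicate 3 (-0.26). MUC5AC was not called (0.59 ± 0.28, adjusted p = 0.204).

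**Figure D4:**
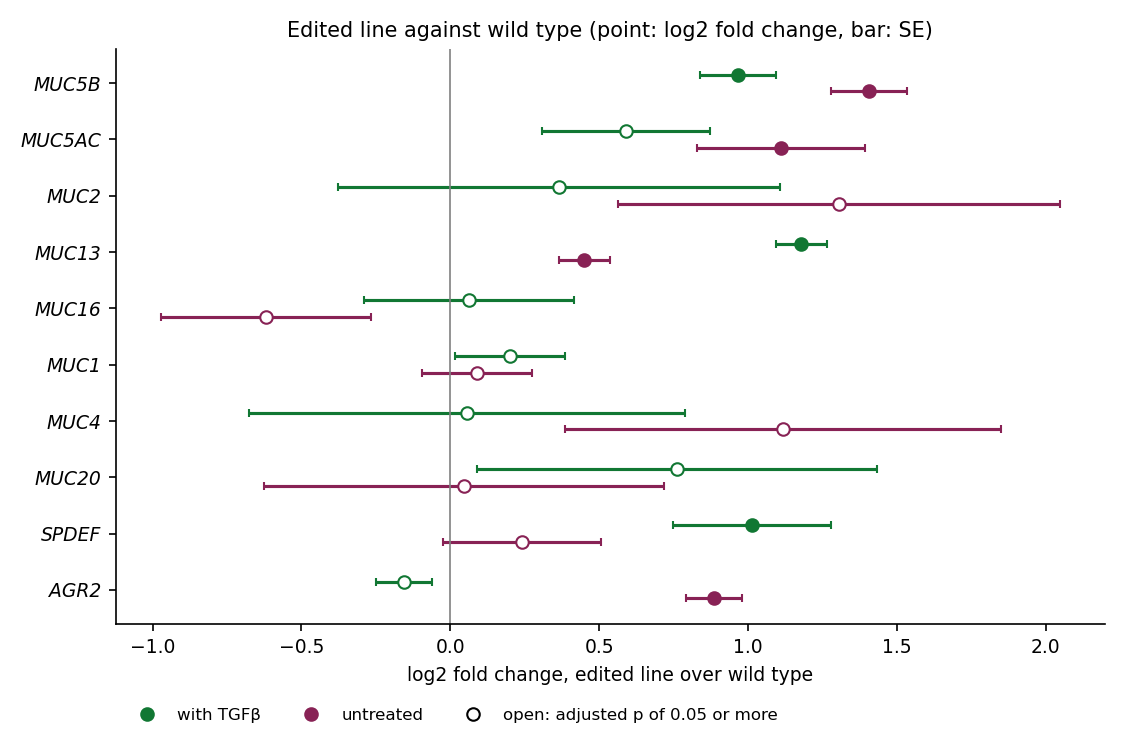
Log2 fold change of the edited line over wild type (horizontal axis) with its standard error (bar) for the 10 genes, with TGFβ (upper point) and untreated (lower point); filled points have an adjusted p under 0.05. AGR2 lies at -0.15 with TGFβ and at 0.88 without, and MUC13 at 1.18 with TGFβ and at 0.45 without.

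The TGFβ response itself differed between the lines for AGR2 and MUC13, the difference being the edited line's log2 fold change minus that of wild type. Such differences passed for 16.6% of tested genes, 10.6% with a higher value in the edited line and 6.02% with a lower one. With equal totals the split was 1731 higher and 1628 lower, and with quantile normalization 1759 higher and 1533 lower. AGR2 fell further in the edited line (-1.04 ± 0.13, adjusted p = 0.000109) and MUC13 fell less (0.73 ± 0.12, adjusted p = 0.000725). For MUC5B the difference was -0.44 ± 0.18 (adjusted p = 0.114), which passed with a pseudocount of 10 (-0.55) and without treated wild type replicate 2 (-0.61). For SPDEF it was 0.77 ± 0.37 (adjusted p = 0.182), which passed without treated wild type replicate 3 (1.16). For MUC5AC it was -0.52 ± 0.40 (adjusted p = 0.422).

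Several other products of secretory epithelium fell with TGFβ. Of 28 listed products 15 were tested. Of these, AGR3, BPIFB1, LYZ, PIGR and TFF3 were under 10 in every treated library, passed the filter only through untreated libraries and so had to be lower with TGFβ. Of the other 10, 7 fell and none rose with TGFβ in each line. Over all tested genes, 30.7% fell and 32.1% rose in the edited line, and 30.9% fell and 30.8% rose in wild type. SLPI, a protease inhibitor of mucus, fell by 5.29 in the edited line and by 5.24 in wild type on the log2 scale. BPIFB1, an airway secretory protein and 1 of the 5, had 4 reads over the treated libraries of each line, against 143 over the untreated edited line and 165 over untreated wild type. CEACAM5, a surface glycoprotein, was at -5.12 ± 0.38 in the edited line and -4.72 ± 0.38 in wild type. TFF3, a trefoil peptide released with mucins, had 4.18, 4.31 and 1.14 normalized counts in the treated edited line, against 34.0, 24.7 and 36.8 untreated. In wild type TFF3 was at 0 in the 3 treated libraries, against 29.9, 39.5 and 30.1 untreated. FCGBP, a mucus protein that binds mucins, was higher in the untreated edited line (1.65 ± 0.24, adjusted p = 6.60e-05), as were CEACAM5 (1.96 ± 0.38), TCN1 (1.42 ± 0.29) and TFF1 (0.82 ± 0.17). In all, 6 of the 15 were higher there and none lower, beside 14.3% higher and 17.5% lower over all tested genes. Of the rest, 13 of the 28 products stayed under 10 in every library, among them the goblet cell product CLCA1 and the club cell product SCGB1A1.

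Transcription factors and stress sensors of secretory cells moved both ways. Of 19 tested, 7 rose and 10 fell in the edited line, and 5 rose and 12 fell in wild type (medians -0.68 in the edited line and -0.81 in wild type). The shares of all tested genes were 32.1% up and 30.7% down in the edited line, and 30.8% up and 30.9% down in wild type. EHF, an epithelial ETS factor, fell (-3.27 ± 0.12 in the edited line and -4.23 ± 0.12 in wild type), as did XBP1, a regulator of secretory capacity (-2.39 ± 0.07 in the edited line and -2.81 ± 0.07 in wild type), and KLF5 (-1.89 ± 0.09 in the edited line and -2.58 ± 0.09 in wild type). In the untreated edited line, 5 of the 19 were higher, among them CREB3L1 (1.14 ± 0.22) and KLF4 (0.56 ± 0.09), and 9 were lower, among them SOX9 (-0.59 ± 0.07) and KLF5 (-0.55 ± 0.09). Over all tested genes, 14.3% were higher and 17.5% lower there.

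Enzymes that build O-linked sugars and genes of granule release showed no common direction. Over all tested genes, 32.1% rose and 30.7% fell with TGFβ in the edited line, and 30.8% rose and 30.9% fell in wild type. Between the untreated lines, 14.3% of all tested genes were higher and 17.5% lower in the edited line. Of 26 tested O-glycosylation genes, 13 rose and 9 fell in the edited line and 12 rose and 10 fell in wild type (medians 0.45 in the edited line and 0.31 in wild type). ST6GALNAC1, which adds sialic acid to the first sugar of mucin chains and passed the filter only through untreated libraries, averaged 0.696 ± 1.21 normalized counts in the treated and 299 ± 32.3 in the untreated edited line, and 4.13 ± 4.04 in treated and 331 ± 22.4 in untreated wild type. FUT1, a fucosyltransferase, fell (-4.50 ± 0.29 in the edited line and -5.07 ± 0.29 in wild type), while GALNT14, which starts O-glycan chains, rose (2.64 ± 0.09 in the edited line and 1.97 ± 0.09 in wild type), as did the sulfotransferase CHST6 (2.24 ± 0.34 in the edited line and 2.49 ± 0.34 in wild type). In the untreated edited line 3 of the 26 were higher, with GALNT5 at 0.69 ± 0.12, and 7 lower, with GALNT14 at -0.82 ± 0.09. Of 18 granule release genes, 8 rose and 6 fell in the edited line and 6 rose and 4 fell in wild type (medians 0.11 in the edited line and 0.09 in wild type). SYTL2, a RAB27 effector, rose (1.00 ± 0.07 in the edited line and 0.83 ± 0.07 in wild type). UNC13D, which serves granule priming, fell (-1.19 ± 0.06 in the edited line and -1.11 ± 0.06 in wild type), as did RAB27B, which serves docking (-0.96 ± 0.11 in the edited line and -1.20 ± 0.11 in wild type), and the myosin MYO5C (-0.99 ± 0.10 in the edited line and -1.10 ± 0.10 in wild type). In the untreated edited line 6 of the 18 were higher, with RAB27B at 0.72 ± 0.11 and STX3 at 0.54 ± 0.07, and 4 lower, with SYTL4 at -0.51 ± 0.08 and SYT7 at -0.48 ± 0.14.

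Mucins outside the 10 were mostly silent. Of 14 listed, 13 had an entry and 5 were tested, since 8 stayed under 10 in every library. MUC3A averaged 1235 ± 61.6 in the treated and 713 ± 65.7 in the untreated edited line, and 1001 ± 103 in treated and 821 ± 113 in untreated wild type, a rise in both lines (0.80 ± 0.11 in the edited line and 0.29 ± 0.11 in wild type). MUC12, its neighbour and relative, also rose (1.43 ± 0.25 in the edited line and 0.68 ± 0.25 in wild type). OVGP1, an oviduct glycoprotein, fell (-1.19 ± 0.15 in the edited line and -1.24 ± 0.15 in wild type). CD164, a sialomucin, rose in the edited line (0.25 ± 0.07) and stood at 0.16 ± 0.07 in wild type (adjusted p = 0.0758), and MUC19 was not called in either line. Whether reads of MUC3A and MUC12 were split between these genes was not checked.

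**Figure D5:**
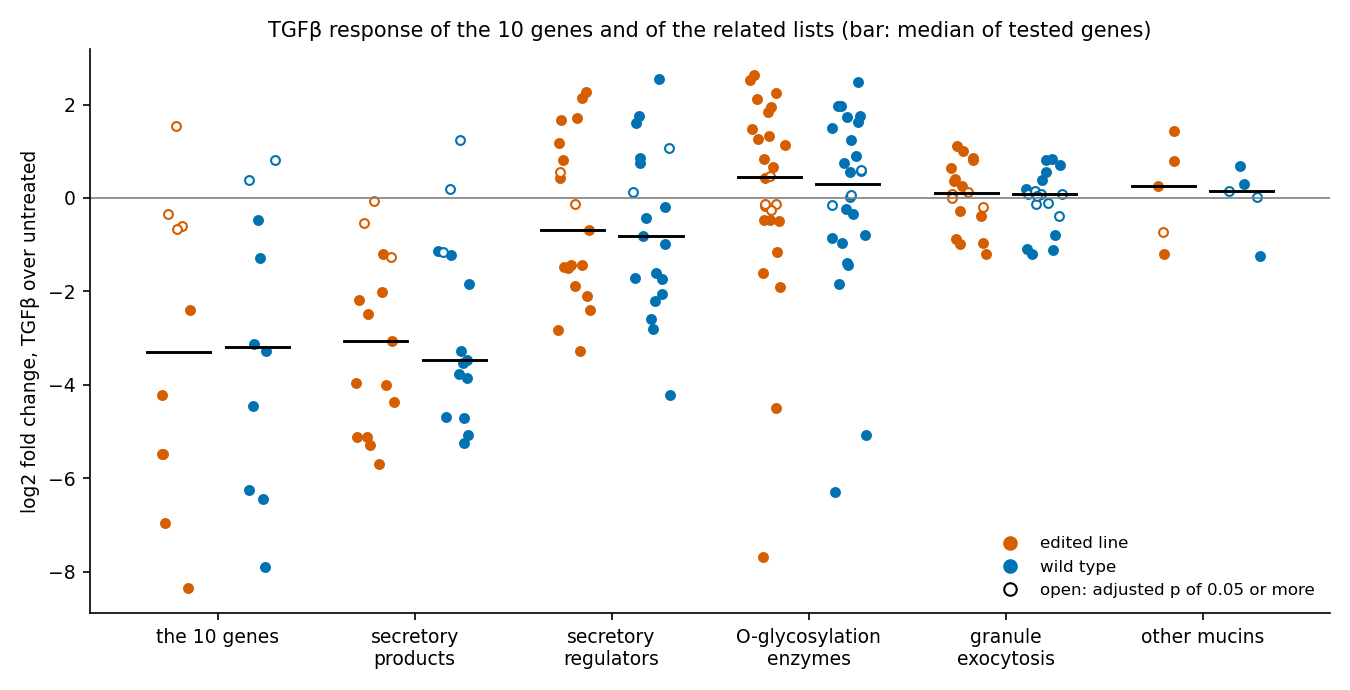
Log2 fold change of TGFβ over untreated (vertical axis) for each tested gene of the 10 and of 5 related lists, in the edited line (left of each pair) and wild type (right); filled points have an adjusted p under 0.05, bars are medians and points are spread sideways at random. Medians lie at -3.30 (edited line) and -3.20 (WT) for the 10 genes and at 0.11 (edited line) and 0.09 (WT) for granule release genes; 5 of the 15 secretory products passed the filter only through untreated libraries.

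Genes with the most similar profile were sought among 13563 tested genes with a mean of at least 100, by the root mean square difference of centred log2 values over the 12 libraries. MYO1A, AC010091.1 and SLC51B were the nearest 3 for SPDEF (0.46, 0.50 and 0.56), for MUC5AC (0.58, 0.38 and 0.56) and for MUC5B (1.01, 1.01 and 0.96). The nearest to AGR2 were SCARA5 (0.24), TJP3 (0.27) and CTC-573N18.1 (0.30). TM4SF4 was nearest to MUC13 (0.11), followed by EPS8L3 and RP11-474D1.3 (0.19 each). KCTD21-AS1 was nearest to MUC1 (0.08), FAM83E to MUC2 (0.75), CH507-513H4.4 to MUC4 (0.70) and CEP170P1 to MUC20 (0.63). MUC2, MUC4 and MUC20 had few reads, so their profiles hold much counting noise and their nearest genes are uncertain.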

How the data were processed

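RNA-seq was done on 12 libraries of A549 cells in 4 groups of 3. The authors deposited a signal of normalized counts per gene. The tools named in the submitters' processing notes are featureCounts, HISAT2, DESeq2 and StringTie, and the build is GRCh38.p14. Tool versions, annotation and strand setting: not given in the sources used here. Each library's values were whole multiples of a step (tolerance 0.01, 100% of values), which gave back whole reads.

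A gene was tested if 3 or more of the 12 libraries reached a value of 10 (20456 genes). The tool was limma 3.58.1 with a variance trend (R 4.3.3), applied to log2(value + 1) in 1 fit of 4 group means, two-sided, with Benjamini-Hochberg adjustment over all tested genes and a threshold of 0.05. The scale understates changes of low genes. edgeR 4.0.16 and DESeq2 1.42.0 on the recovered reads, and other settings, were alternatives. The test was also run on simulated counts with the same dispersion for all genes and few changed genes. Those settings differ from these data, so that run does not show how the test performs here.

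The 10 genes and the lists were chosen with earlier results of these data known. Named list genes are up to 4 called genes with the largest change in wild type with TGFβ and in the untreated edited line, plus neighbours of the cluster and other mucins. A few genes that this rule or the marker lists would name are not reported here. Levels between genes were compared per kilobase of exon from GENCODE 29. Positions came from RefSeq.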

Additional observations from a re-analysis of the deposited data

Results flagged for a closer look

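The TGFβ response of AGR2 and of MUC13 differed between the edited line and wild type by the test of the difference itself. For AGR2 the difference was -1.04 ± 0.13 on the log2 scale, with TGFβ log2 fold changes of -5.49 in the edited line and -4.45 in wild type. The means of AGR2 were 4573 in the treated and 204704 in the untreated edited line, and 5106 in treated and 110926 in untreated wild type. For MUC13 the difference was 0.73 ± 0.12, with -2.39 in the edited line and -3.12 in wild type. Differences of this kind passed for 16.6% of all tested genes.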

How the results depend on the processing

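Of 50 fold changes (10 genes in 5 comparisons), 35 kept their direction and their side of the threshold under every alternative run, and 1132 of 1170 alternative values did. The falls of MUC5B, MUC5AC, MUC2, MUC13, SPDEF and AGR2 with TGFβ in both lines are among the 35, as are the higher MUC5B, MUC5AC, MUC13 and AGR2 in the untreated edited line. The count of all genes called moved by over 1.5 times only for the edited line with TGFβ, with 2394 genes in the fit reported, 1183 with the compared groups alone and 1387 to 3829 with a library left out. The cause was not tested. The lowest of these left out replicate 3 of the treated edited line and the highest replicate 3 of treated wild type, and 1425 genes were called without replicate 2 of treated wild type.

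Values that changed sign were all of uncalled genes with small differences. With quantile normalization MUC4 was at -0.17 for the TGFβ effect in wild type and at -0.032 between the treated lines, and MUC20 at -0.10 for the untreated edited line. With a library left out, MUC4 ranged from -0.25 to 1.01 for the TGFβ effect in wild type and from -0.31 to 0.59 between the treated lines. In that comparison MUC2 ranged from -0.014 to 1.12 and MUC16 from -0.26 to 0.31. For the untreated edited line MUC1 ranged from -0.020 to 0.20 and MUC20 from -0.59 to 0.55. Quantile normalization moved the median of all genes for TGFβ in the edited line to -0.08, from 0.03. Deviations of same-numbered libraries of different groups had correlations of -0.03 to 0.13 over 18 pairs, 2 of them over 0.1. With the replicate number as a replicate block, more genes were called in each comparison. The counts were 13096 against 12842 without the block (TGFβ, edited line) and 12920 against 12624 (TGFβ, wild type). They were 7068 against 6514 (edited over wild type, untreated), 2987 against 2394 (edited over wild type, treated) and 3987 against 3395 (difference in response). The block changed no call of the 10 genes. With a filter of 50, MUC2, MUC4 and MUC20 were not tested. DESeq2 gave no adjusted p for some values of MUC2, MUC4 and MUC20. For MUC2, MUC4 and MUC20, few reads limit what can be detected.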
